A study of Mus musculus with 49 samples.

Results

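DediHep aggregates were compared with freshly isolated mouse hepatocytes, using 6 of the 49 libraries of the series. The 3 aggregate libraries and the 3 fresh hepatocyte libraries were taken by their sample titles and column names. DediHeps are dedifferentiated hepatocytes, progenitor-like cells that arise when adult hepatocytes are kept and passaged as a monolayer with epidermal growth factor (EGF, 20 ng/mL). Aggregates are the same cells gathered into clusters in ultra-low attachment wells, a step meant to return them to the hepatocyte state. The comparison therefore asks which liver genes remain below the level of the liver cell after this step and which genes of the cultured state remain above it.

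Both groups carry a wild-type C57BL/6J background, and the cells came from the livers of 10-week-old mice digested with collagenase. The study describes the donors as male. Fresh hepatocytes were separated from other liver cells by repeated centrifugation and never cultured. Aggregates 1, 2 and 3 carry the culture names of monolayer dediHep libraries 1, 2 and 4, so each was made from a culture that was also sequenced flat. The 5 monolayer dediHep libraries are used below as a second point of reference. By the paper, aggregates were kept in a medium used to aggregate induced hepatocyte-like cells, and monolayers in one for hepatic progenitor cells. EGF is given for the monolayers and not for the aggregates. Clustering and medium therefore cannot be told apart between aggregates and monolayers. Nothing in the labels says that the 3 fresh libraries came from separate mice, so p-values measure only the spread between these samples, which may be technical.

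Hepatocytes make most plasma proteins, turn cholesterol into bile acids, detoxify drugs through cytochromes P450 and conjugating enzymes, convert ammonia to urea and release glucose between meals. These tasks rest on a network of transcription factors that includes HNF4A and FOXA2, and many of the genes are also tuned by growth hormone and by position along the liver lobule. In culture hepatocytes lose much of this programme and take on genes of biliary, progenitor and mesenchymal cells.

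Transcripts were measured by CEL-seq2, which reads 3′ ends and counts unique molecular identifiers (UMIs). Fresh libraries held 1211070 to 1523804 counts and aggregate libraries 1362169 to 2356830. Levels are given as UMI counts per library or as CPM, the count relative to the library total after scaling by TMM factors. These factors ran from 0.75 to 0.821 in fresh hepatocytes and from 1.21 to 1.3 in aggregates. A UMI of 6 bases has 4096 forms, so a gene cannot exceed this count in a library. Of the genes tested, 209 passed 2000 counts in at least 1 of the 6 libraries and 96 passed 3000. Counts of such genes rise less than the true level, and the more so the nearer they are to this limit. The fold change after correcting for UMIs drawn more than once is given where it moved a printed fold change by over 1.5-fold. Ratios and bounds for genes nearly or wholly without counts in a group rest on uncorrected counts. Fresh hepatocytes 1 stood apart from the other fresh libraries, with Spearman correlations of 0.845 and 0.834 against 0.927 between fresh hepatocytes 2 and 3. Aggregates correlated with each other at 0.892 to 0.919.

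Sex-linked transcripts did not match the description of the donors in every library. Ddx3y, a gene of the Y chromosome, had 444, 264 and 612 counts in fresh hepatocytes against 0, 0 and 15 in aggregates. Xist, the RNA that silences an X chromosome in female cells, had 366 counts in aggregate 1 and 738 in monolayer dediHeps 1, which share a culture name, and at most 1 count in every other library of these groups. Aggregate 2 had neither Xist nor Ddx3y counts. The results on sex-biased liver genes are therefore given also without aggregate 1.

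In all, 9544 genes passed the low-count filter of edgeR and were tested. A gene was called when its false discovery rate (FDR) was under 0.1 and its log2 fold change, aggregates over fresh hepatocytes, was beyond 2 in either direction. By this rule 1580 genes were called (16.6%). Of them 647 were higher in aggregates (6.78%) and 933 were lower (9.78%). At an FDR under 0.1 and any fold, 3403 genes differed (35.7%). All 3 aggregates lay above all 3 fresh libraries for 2054 genes (21.5%) and below them for 2110 (22.1%). Of the genes tested 73 had no count in fresh hepatocytes and passed the filter through the aggregates alone. All 73 were called higher, and all 94 with no count in aggregates were called lower. A gene that passed through 1 group had to differ, so these calls are a description. Genes with only a few counts in a group passed the filter in the same way and are not among these 73 and 94. Counts given below for genes with counts in fresh hepatocytes still include them. By contrast, 659 genes (6.9%) were not called and had a 95% interval within 1 log2 unit of no change. The split between directions depends on the scaling. With library totals in place of TMM factors the median of all genes moved up by 0.65 log2 units, and the calls became 1152 higher and 622 lower, or 64.9% higher in place of 40.9%. Directions of lists whose median lies closer to 0 than this shift are not given below.

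Across 12 lists of hepatocyte functions, 494 genes were measured and 441 of them were tested. Aggregates reached a median of 26% of the fresh mean for these genes, against 96.6% over the 9471 tested genes with counts in fresh hepatocytes. In aggregates 61 of the 441 (13.8%) stayed below 1% of the fresh level, 75 lay between 1% and 10%, 176 between 10% and 50%, and 96 between 50% and 200%. The share below 1% was 2.01% over all genes. In the lists 215 genes were called lower (48.8%) and 16 called higher (3.63%). The other 53 genes did not pass the filter and enter none of these counts. The lists were assembled with earlier results of these data known, so the counts describe them and support no claim about hepatocyte genes in general.

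**Figure D1:**
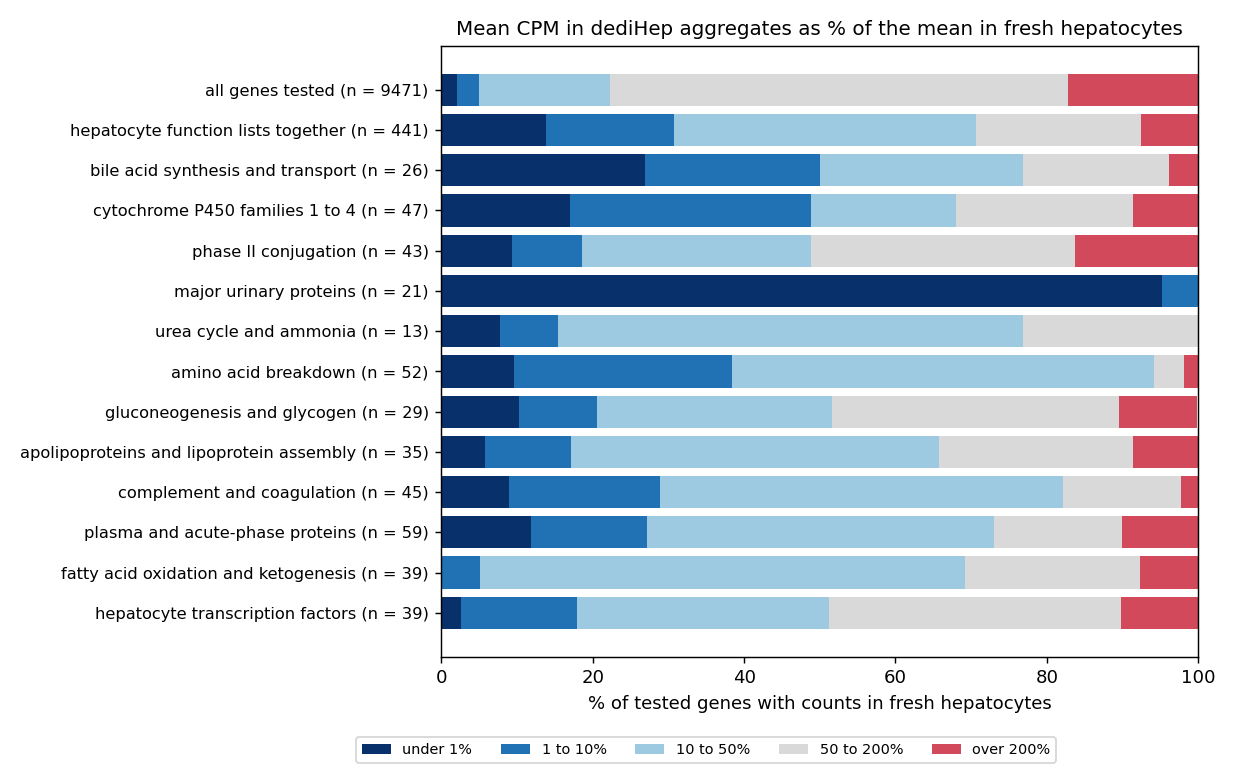
Horizontal bars show the percentage of tested genes (x axis) in each list whose mean CPM in the 3 dediHep aggregates lay under 1%, at 1 to 10%, 10 to 50%, 50 to 200% or over 200% of the mean in the 3 fresh hepatocyte libraries, for genes with counts in fresh hepatocytes. Major urinary proteins lie almost entirely under 1%, fatty acid oxidation has no gene there, and over all genes the band from 50 to 200% holds 60.6%.

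The lists differed in depth. Genes of fatty acid oxidation reached a median of 42.9% of the fresh level and none of its 39 tested members lay under 1%. Phase II enzymes stood at 52.7%, gluconeogenesis and glycogen genes at 49.1% and transcription factors at 45.6%. Cytochromes P450 reached 10.5%, bile acid genes 12%, and enzymes of amino acid breakdown 13.9%. Major urinary proteins were at 0.00297%, a value that the counts hardly resolve, since 10 of the 21 genes had no count in aggregates. Their median log2 fold change was -14.13, or -13.11 with genes at 0 set to their bound.

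The label of the samples was checked against markers of hepatocytes and of the other cells of the liver. All 18 hepatocyte markers were tested. Of these 2 were called lower and 0 higher (4 lower without aggregate 1, and 1 without fresh hepatocytes 2 or aggregate 2), with a median log2 fold change of -1.11, and their summed level was 15500 to 23700 CPM in aggregates, 37500 to 49200 CPM in fresh hepatocytes and 1900 to 7300 CPM in monolayers. The aggregates were thus hepatocyte-like by these markers. Their summed level was lower than in fresh cells after TMM scaling, and with library totals the median was -0.46. Markers such as Alb had counts near the UMI ceiling in both groups, so the size of this gap is poorly determined. Cyp2e1 was the only hepatocyte marker with no count in any aggregate.

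Markers of other liver cells moved in the same direction as many liver genes. Summed markers of macrophages and Kupffer cells were 146 to 451 CPM in fresh hepatocytes and 3.08 to 15 CPM in aggregates, with 12 of 17 at 0 in every aggregate. C1qb, a complement component made by macrophages, had 33, 54 and 34 counts in fresh hepatocytes and none in aggregates. Sinusoidal endothelial markers summed to 507 to 696 CPM against 45 to 87.7 CPM, with 10 of 16 at 0 in aggregates. Clec4g, a lectin of these cells, had 80, 173 and 173 counts in fresh hepatocytes and none in aggregates. Stellate cell markers summed to 315 to 594 CPM against 2.47 to 13.7 CPM, with 7 of 17 at 0, and blood cell markers to 77.4 to 168 CPM against 0.617 to 1.53 CPM, with 13 of 16 at 0. Dcn, a matrix proteoglycan of stellate cells, had 73, 55 and 46 counts in fresh hepatocytes and none in aggregates. None of these 4 lists overlapped between groups in its sum. Fresh hepatocytes thus carried RNA of other liver cells at higher summed levels than aggregates. The part of this RNA in genes lower in aggregates was not tested, and in bulk RNA fewer cells of a type and less RNA per cell cannot be told apart.

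**Figure D2:**
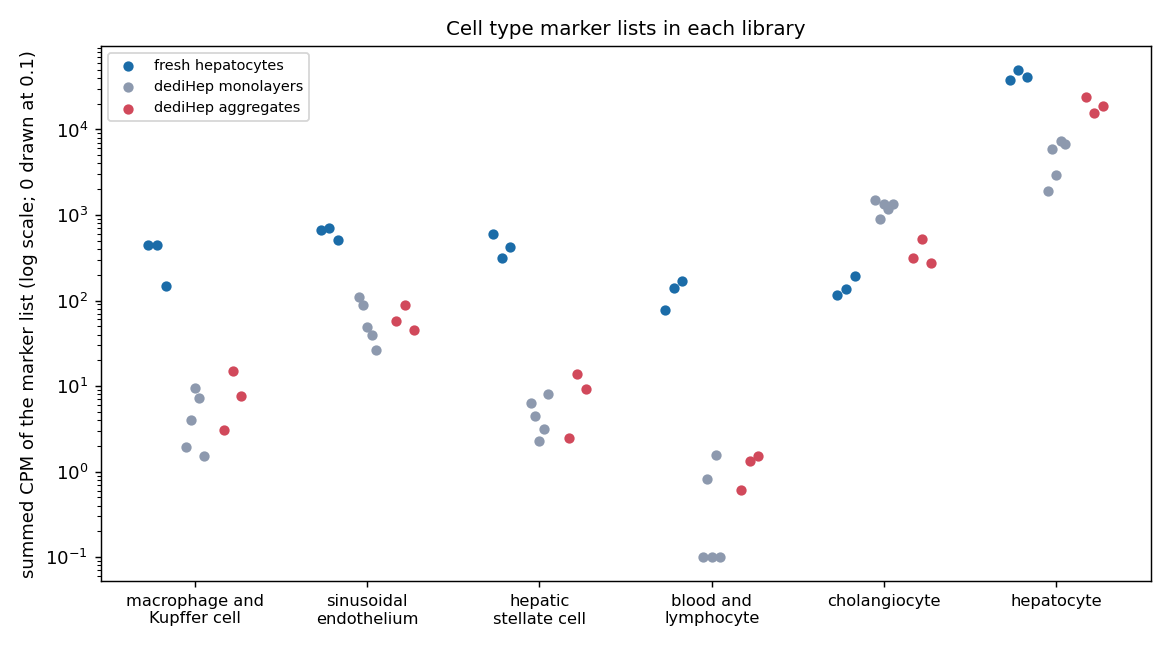
Summed CPM of each cell type marker list (log y axis, sums of 0 drawn at 0.1) is shown for each fresh hepatocyte, monolayer dediHep and aggregate library as a point. Markers of macrophages, endothelium, stellate cells and blood lie above those of the cultures in all 3 fresh libraries, cholangiocyte markers lie at 278 to 517 CPM in aggregates and 117 to 196 CPM in fresh cells, and hepatocyte markers of aggregates lie between monolayers and fresh hepatocytes.

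Some abundant plasma proteins were not called. Alb, which encodes albumin, had 3607, 3733 and 3771 counts in fresh hepatocytes and 3725, 3834 and 3816 in aggregates. The raw counts overlapped near the UMI ceiling, and after scaling the log2 fold change was -1.10 ± 0.33 (SE), or -0.95 with the UMI correction. It was not called. Ahsg (fetuin A) and Ttr (transthyretin) gave -1.13 and -1.03, or -1.04 and -0.84 with the correction, and Apoa1, the main protein of high-density lipoprotein, gave -0.74, which the correction turned to 0.14. Scaled folds of these genes are poorly determined, since their counts were alike in all 6 libraries. In monolayers Alb ranged from 160 to 2001 counts, below every aggregate.

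Other secreted proteins stayed far from the fresh level. Of 59 tested plasma and acute-phase genes 24 were called lower and 4 higher (median -1.36). Mug1 and Mug2, the murinoglobulin protease inhibitors, had 580 to 1446 and 264 to 614 counts in fresh hepatocytes and none in aggregates, at least 2340-fold and 1130-fold lower. Complement and coagulation genes numbered 22 lower and 1 higher of 45 (median -1.96). C8a, a chain of the membrane attack complex, had 2349, 3137 and 3181 counts in fresh hepatocytes and 1, 0 and 0 in aggregates. The ratio of the groups was 20000 with a counting interval of 3590 to 790000. Its neighbour C8b, on the same chromosome, fell by 7.55 on the log2 scale from 728, 1242 and 1853 counts to 9, 13 and 24. C6 had 219, 142 and 152 counts against 0, 0 and 1. These 3 genes encode parts of one pore and were chosen for their small p. None had an aggregate near the lowest fresh library, and 22.1% of all genes tested lay below fresh hepatocytes without overlap. By contrast Fga, the alpha chain of fibrinogen, had 2899 to 3581 counts in fresh hepatocytes and 2407 to 3807 in aggregates and was not called (-1.18, or -0.96 with the UMI correction), and C4bp, an inhibitor of complement, gave -0.07 with a 95% interval of -0.99 to 0.84.

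Some secreted proteins were above the fresh level. The 4 called higher were 6.78% of the 59 tested plasma and acute-phase genes, the same share as over all genes tested (6.78%). Lcn2, the iron-binding acute-phase protein lipocalin 2, went from 16, 4 and 8 counts to 343, 1955 and 2288, a log2 fold change of 6.01 ± 0.69 (SE; 6.66 without fresh hepatocytes 1). Lbp, which binds bacterial lipopolysaccharide, went from 41, 27 and 55 counts to 285, 580 and 440 (2.21 ± 0.35). Serpina7, which encodes thyroxine-binding globulin, had 15, 1 and 8 counts against 230, 565 and 724. It was at 4 to 23 counts in monolayers, so it was high in aggregates alone among these 3 groups, and it was called higher against both. The groups did not overlap for any of the 3 genes, which were chosen for their small p. Of all genes tested 21.5% lay above fresh hepatocytes without overlap.

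**Figure D3:**
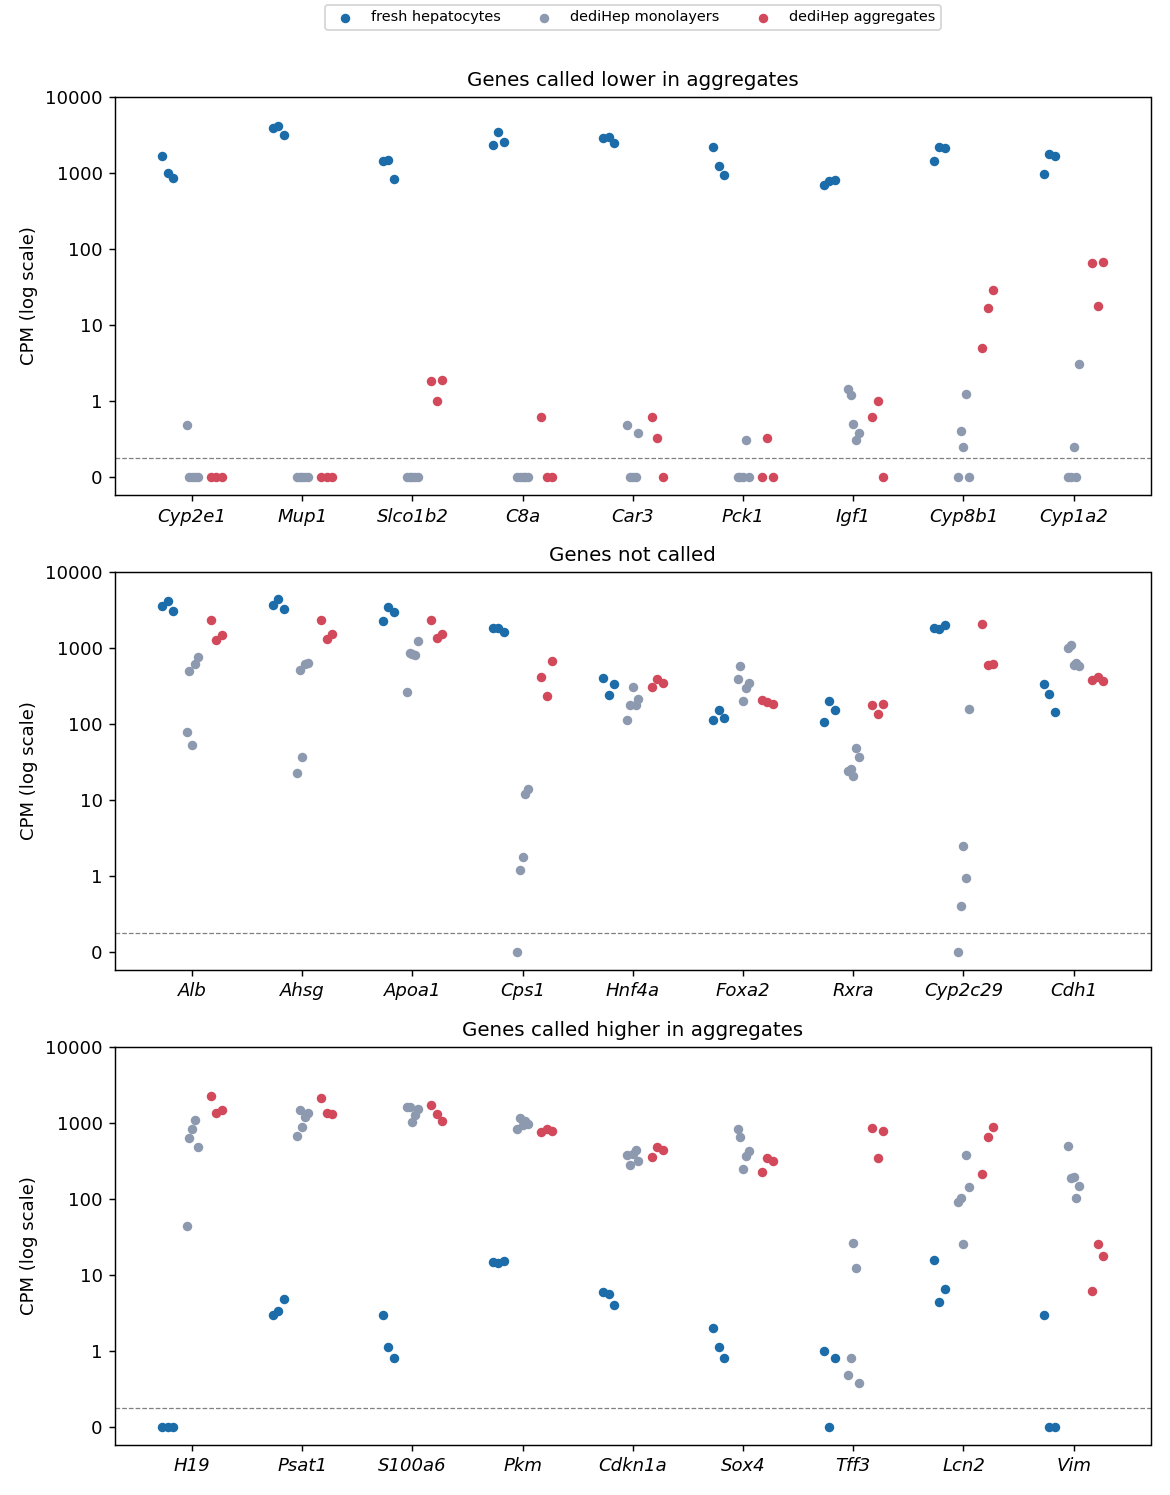
Each point is a library, with CPM scaled by TMM on a log y axis and counts of 0 drawn below the dashed line, for 9 genes called lower, 9 not called and 9 called higher in aggregates (x axis). In the upper panel every aggregate lies below every fresh library, in the middle panel most genes lie within the range of either group or just below it, and in the lower panel every aggregate lies above every fresh library.

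Bile acid genes were mostly far below the fresh level, and 17 of 26 were called lower and 1 higher (median -3.08). Cyp7a1, the rate-limiting enzyme of the classical pathway, had 112, 206 and 49 counts in fresh hepatocytes and 2, 7 and 13 in aggregates (-5.38 ± 0.74 SE, or -4.65 without fresh hepatocytes 2). Cyp8b1, the 12α-hydroxylase that sets the share of cholic acid, had 1449, 1978 and 2657 counts against 8, 51 and 77 (-6.79 ± 0.63). It stood at 0 to 4 counts in monolayers and was called higher in aggregates than there. Cyp7b1, of the alternative pathway, had 422 to 998 counts in fresh hepatocytes and 1 count over all aggregates. The 3 hydroxylases thus stood at 0.0198% (Cyp7b1), 0.886% (Cyp8b1) and 2.24% (Cyp7a1) of the fresh mean.

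The Cyp8b1 promoter is shown because it is the only one of 24 promoters of listed bile acid genes that holds CAAAGTCCA, an HNF4-type element. The sequence is the 250 bases before the transcription start, 5′ to 3′ on the strand of the gene, from RefSeq on GRCm38.p6. Capitals mark the element, at position 184 counted from the first base printed.

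Cyp8b1 promoter, chr9:121916306-121916555, minus strand: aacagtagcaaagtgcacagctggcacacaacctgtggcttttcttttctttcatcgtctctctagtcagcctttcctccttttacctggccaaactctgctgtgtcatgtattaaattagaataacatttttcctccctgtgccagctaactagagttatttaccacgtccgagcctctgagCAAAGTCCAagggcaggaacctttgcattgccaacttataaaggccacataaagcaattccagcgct

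CAAAGTCCA, searched on both strands, is in 0.384% of all promoters of this length and in 0.435% of those of tested genes. It is in 1% of those of genes called lower (8 of 800) and in 0.786% of those of genes called higher (5 of 636). A match describes the letters and says nothing of what binds there.

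Transporters of bile acids differed by gene. Slco1b2, an uptake carrier of the blood-facing membrane, had 1458, 1337 and 1041 counts in fresh hepatocytes and 3, 3 and 5 in aggregates (-9.61 ± 0.54 SE). Slco1a1, a related carrier, had 1005 to 1488 counts against none. Slc10a1, the sodium-coupled uptake carrier, kept 73, 27 and 165 counts against 1617, 602 and 893 (-4.68 ± 0.69), and Abcb11, the export pump of the bile canaliculus, kept 149, 154 and 292 against 696, 664 and 1675 (-3.45 ± 0.45). Both had at most 5 counts in any monolayer. Abcc4, an export pump of the blood-facing membrane, was the called exception in the other direction, with 3, 1 and 0 counts against 165, 477 and 273 (6.48 ± 0.69, or 7.80 without fresh hepatocytes 1). Slco1b2 and Slco1a1 were thus nearly or wholly without counts, Slc10a1 and Abcb11 partly present and Abcc4 high.

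Cytochromes P450 of families 1 to 4 showed the same range within a single family. Of 65 genes measured, 47 were tested, 30 were called lower and 3 higher (median -3.26), and the count of higher calls was 5 without fresh hepatocytes 1 or 2. Cyp2e1, which oxidises ethanol, had 1671, 910 and 1071 counts in fresh hepatocytes and none in aggregates, at least 2810-fold lower. Cyp2j5 had 737 to 792 counts against none, at least 1740-fold lower. Cyp1a2, a drug-metabolising enzyme inducible through the aryl hydrocarbon receptor, had 990, 1604 and 2078 counts against 108, 54 and 176 (-4.88 ± 0.56 SE) and 0 to 8 in monolayers. Cyp2f2, an enzyme of periportal hepatocytes, had 2775, 3243 and 3698 counts against 32, 37 and 138 (-6.78 ± 0.60, or -7.76 with the UMI correction and -7.55 without aggregate 3). In all of these genes the groups were well separated, and 22.1% of all genes tested lay below fresh hepatocytes without overlap.

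Other P450 genes lay on both sides of the fresh level. Cyp3a11, a major drug-metabolising enzyme, had 3287, 1039 and 1423 counts in fresh hepatocytes and 804, 86 and 247 in aggregates (-3.18 ± 0.88 SE, FDR 0.021 in edgeR). Its call held in every fit, and the value was -3.77 with the UMI correction, -4.84 without aggregate 1 and -2.51 without fresh hepatocytes 1. Cyp2c29, with 1833, 1569 and 2438 counts against 3350, 1803 and 1627, was not called (-0.75, 95% interval -1.78 to 0.27), and it was at 0 to 10 counts in 4 of 5 monolayers and 408 in the other. Cyp3a13 gave 0.21 with an interval of -0.52 to 0.94. Cyp2c65 and Cyp2c55 went the other way, from 3, 0 and 0 and 5, 2 and 5 counts to 903, 302 and 23 and 309, 86 and 15. Both were called higher, though aggregate 1 carried most of the level. Without it the log2 fold change of Cyp2c65 went from 7.74 to 5.81 and that of Cyp2c55 from 4.26 to 2.25. Without fresh hepatocytes 1, the only fresh library with counts of Cyp2c65, its value was 11.70. Genes of the Cyp2c family share sequence, so their separate counts are uncertain.

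Conjugating enzymes of phase II lay closer to the fresh level than the P450 genes. Of 43 tested 16 were called lower and 2 higher, and the higher calls were 5 without fresh hepatocytes 1, 4 without fresh hepatocytes 2 or 3 or aggregate 3, and 6 with library totals. Sult2a8, a sulfotransferase of bile acids, had 359 to 776 counts in fresh hepatocytes and none in aggregates, at least 1310-fold lower. Ugt2b1, a glucuronosyltransferase, had 668, 458 and 589 counts against 5, 8 and 10 (-7.40 ± 0.45 SE). Gstt1, a glutathione transferase, was at 0.05 with a 95% interval of -0.87 to 0.97, and Gsta1, another one, rose from 14, 5 and 7 counts to 401, 329 and 119 (3.99 ± 0.68, or 3.29 without aggregate 1).

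Major urinary proteins, pheromone carriers secreted by the male liver, had the lowest median of the 12 function lists. All 21 measured genes were tested and called lower. Their summed level was 59700 to 77200 CPM in fresh hepatocytes and 33.3 to 422 CPM in aggregates, and 10 had no count in any aggregate. Mup1 (chr4:60498012-60501960, GRCm38) had 3925, 3772 and 3863 counts in fresh hepatocytes and none in aggregates, at least 8890-fold lower. Mup20 (chr4:62050234-62054158) was the exception, with 4008, 4042 and 4031 counts against 34, 269 and 1012 (-4.56 ± 0.84 SE, or -6.39 with the UMI correction and -6.04 without aggregate 3). It had 0 to 10 counts in monolayers. Mup5 followed with 2, 5 and 29 counts in aggregates against 1954 to 2966 in fresh hepatocytes. The genes of this cluster are near-identical copies, so counts can pass between them, and in this respect their sum is firmer than each gene. Counts near the UMI ceiling, such as those of Mup1 and Mup20, make the fresh sum too low.

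Genes that depend on growth hormone and sex in mouse liver were also low in part. The male-biased list shares genes with the lists above, among them Mup7, Mup20, Cyp7b1 and Slco1a1, so its counts are not separate from theirs. Of 18 tested male-biased genes 16 were called lower and 0 higher (median -6.30), and without aggregate 1 the counts were the same with a median of -6.78. The female-biased list had 10 tested genes, with 3 called lower and 1 higher, or 5 lower and 1 higher of 12 without aggregate 1, and its higher calls ran from 0 without aggregate 3 to 3 without fresh hepatocytes 2. Of the 16 tested genes of the growth hormone and IGF axis 9 were called lower and 0 higher (median -3.04, from -3.83 to -1.95 when a single library was left out). Igf1, the hormone that liver cells release under growth hormone, had 692, 709 and 1011 counts in fresh hepatocytes and 1, 3 and 0 in aggregates. Igfbp2, an IGF-binding protein, had 375 to 680 counts against none, at least 1210-fold lower. Prlr, the prolactin receptor, had 52 to 137 counts against 1 in each aggregate. Ghr, the growth hormone receptor, had 1162, 698 and 957 counts against 346, 701 and 571 and lay at the threshold (-2.02 ± 0.33 SE). Its call was lost with library totals (-1.37), with DESeq2 (-1.98) and without fresh hepatocytes 1 (-1.83) or aggregate 1 (-1.91), 2 (-1.99) or 3 (-1.95). Egfr, the receptor for EGF, fell by 5.33 ± 0.40 from 569, 370 and 573 counts to 23, 32 and 29. The receptor of growth hormone was thus within a few fold of the fresh level while the hormone response gene Igf1 was nearly absent.

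Nitrogen and amino acid metabolism was reduced but rarely absent. Of 13 tested genes of the urea cycle and ammonia handling 8 were called lower and 0 higher (median -2.09), or 5 lower with library totals. Cps1, the first enzyme of the cycle, had 1826, 1615 and 1988 counts in fresh hepatocytes and 672, 689 and 1763 in aggregates. It just missed the call (-1.99 ± 0.41 SE) and was called with the UMI correction (-2.07), with thinned counts (-2.03) and without fresh hepatocytes 3 (-2.05) or aggregate 3 (-2.37). Otc had 2613, 3134 and 3445 counts against 1447, 1461 and 387 (-2.54, or -3.13 both with the UMI correction and without aggregate 1), and its call was lost with library totals (-1.89). Ass1 was called lower at -2.91. Arg1, the last enzyme, had 1781, 994 and 1549 counts against 86, 127 and 1078 (-3.02, or -4.79 without aggregate 3). In monolayers Arg1 had no count and Cps1 and Otc had at most 42. In raw counts aggregate 3 reached the range of fresh hepatocytes for Cps1 and Arg1, and no aggregate did for Ass1 or Otc. Aggregate 3 was the deeper library, with 2113238 counts against 1211070 to 1523804 in fresh hepatocytes. After scaling it lay below every fresh library for Cps1 and Arg1.

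Amino acid breakdown had 37 of 52 tested genes called lower and 0 higher (median -2.85). Dmgdh, which oxidises dimethylglycine, had 482 to 980 counts in fresh hepatocytes and none in aggregates, at least 1610-fold lower. Tdo2, which opens the ring of tryptophan, had 2371, 1672 and 2267 counts against 8, 17 and 60 (-7.47 ± 0.66 SE, or -8.47 without aggregate 3) and none in monolayers. Gls2, the liver glutaminase, and Oat, ornithine aminotransferase, were called lower at -3.80 ± 0.53 and -3.21 ± 0.53. Of 15 members that were not called, none had a 95% interval within 1 log2 unit of no change.

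Of 29 tested genes of gluconeogenesis and glycogen 8 were called lower and 1 higher. Pck1, the cytosolic enzyme that commits carbon to glucose, had 2181, 1106 and 1166 counts in fresh hepatocytes and 0, 1 and 0 in aggregates. The ratio was 10300 with a counting interval of 1840 to 406000. Fbp1, a later step, had 806, 1114 and 1091 counts against 4, 1 and 14, and Pygl, liver glycogen phosphorylase, 306, 583 and 770 against 30, 97 and 61 (-4.40 ± 0.46 SE). The called gene in the other direction was Pck2, the mitochondrial form of the first enzyme, with 2, 9 and 6 counts against 193, 270 and 216 (4.12 ± 0.54, or 4.74 without fresh hepatocytes 2). The isoforms thus moved in opposite directions, and monolayers showed the same with 0 to 1 counts of Pck1 and 118 to 418 of Pck2.

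Lipid transport and oxidation were lowered to a moderate degree. Of 35 tested genes of apolipoproteins and lipoprotein assembly 14 were called lower and 1 higher (median -1.76), or 9 lower with library totals. Pon1, the paraoxonase carried on lipoproteins, had 380, 166 and 274 counts in fresh hepatocytes and 0, 1 and 0 in aggregates. Apoa5, which promotes triglyceride clearance, fell by 4.64 ± 0.47 SE from 402, 795 and 842 counts to 27, 90 and 82. Of 39 genes of fatty acid oxidation and ketogenesis 9 were called lower and 2 higher (median -1.22). Fabp1, the fatty acid carrier of liver cytosol, and Slc27a2, which activates very long fatty acids, were called lower at -2.79 ± 0.31 and -3.54 ± 0.45. Cd36, a fatty acid uptake receptor that is low in healthy hepatocytes, had 31, 21 and 7 counts against 318, 252 and 337 (2.78 ± 0.58) and at most 8 counts in monolayers. It was called higher in aggregates than in both other groups.

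Transcription factors of the hepatocyte differed by gene. Of 39 tested 11 were called lower and 1 higher. Hnf4a, the central regulator, had 406, 218 and 408 counts in fresh hepatocytes and 500, 1154 and 900 in aggregates, which is 325 ± 80.2 CPM against 346 ± 38.2 CPM (SD, n = 3 each). The log2 fold change was 0.09 with a 95% interval of -0.65 to 0.82, and the groups overlapped. Rxra, a partner of nuclear receptors, gave 0.11 (-0.68 to 0.91) and Foxa2 gave 0.58 (-0.14 to 1.30). Nr1h4, the bile acid receptor FXR, gave -0.89 (-1.68 to -0.11) and was not called. None of these 4 factors was called, and the intervals of Hnf4a and Rxra lay within 1 log2 unit of 0. With library totals the higher calls of the list became 3.

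The 11 factors called lower included Nr1i3, Onecut1 and Esr1. Nr1i3, the xenobiotic receptor CAR, had 63, 138 and 123 counts in fresh hepatocytes and 7, 8 and 21 in aggregates (-4.37 ± 0.55 SE). Onecut1, or HNF6, had 133, 44 and 238 counts against 2, 14 and 12 (-5.06 ± 0.64). Esr1, the oestrogen receptor, had 58, 35 and 41 counts against 0, 0 and 1. None of the 3 overlapped between groups, but they were chosen for their small p. Aggregates lay below fresh hepatocytes without overlap for 22.1% of all genes tested. None of the 3 passed the filter for the comparison of aggregates with monolayers.

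Genes of both ends of the liver lobule were low. Of 20 tested periportal genes 14 were called lower and 0 higher (median -2.64), and of 21 tested pericentral genes 14 were called lower and 0 higher (median -4.32). Pigr, the periportal antibody transporter, had 1074, 1426 and 1203 counts in fresh hepatocytes and 8, 1 and 7 in aggregates. Gulo, the enzyme that completes vitamin C synthesis, had 210, 220 and 163 counts against 1, 4 and 1, and Rgn, or regucalcin, 2349, 2368 and 2613 against 74, 93 and 37 (-6.29 ± 0.50 SE). The groups did not overlap for these genes, and 22.1% of all genes tested lay below fresh hepatocytes without overlap. The difference between the zones was not tested.

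Outside the lists, Car3 was among the 10 genes called lower with the smallest p. Carbonic anhydrase III, its product, is abundant in male liver and fat. Car3 (chr3:14863512-14872523, GRCm38) had 2868, 2678 and 3067 counts in fresh hepatocytes and 1, 1 and 0 in aggregates, a ratio of 9930 with a counting interval of 2750 to 82000. The other 9 were Mup9, Mup11, Mup14, Mup15, Mup18, Mup19, C8a, Slco1b2 and Akr1c6. The last encodes an aldo-keto reductase of steroids and had 2007, 957 and 1700 counts against 0, 0 and 1. Each of the 10 was at 0 to 5 counts in every aggregate.

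Genes above the fresh level included H19, the imprinted long noncoding RNA of fetal liver (chr7:142575529-142578143, minus strand, GRCm38). It had no count in any fresh library and 3675, 4045 and 3855 counts in aggregates, near the UMI ceiling, at least 1670-fold higher. Monolayers held 91 to 3503 counts. Igf2, the fetal growth factor of the same imprinted region (chr7:142650766-142666816), had no count in fresh hepatocytes and 67, 947 and 245 in aggregates, at least 182-fold higher. It was also called higher in aggregates than in monolayers, which had 7 to 132 counts. Of 25 genes of the oncofetal and imprinted list only 11 were tested, 9 were called higher and 1 lower, the latter being Dcn. Of the 11, 5 had no count in fresh hepatocytes and passed the filter through the aggregates alone, and among the other 6 the calls were 4 higher and 1 lower. The count of 9 and the median of 5.60 (5.10 with genes at 0 set to their bound, and 7.63 without fresh hepatocytes 3) therefore include genes that had to differ. Afp, alpha-fetoprotein, which lies beside Alb on chromosome 5 and marks fetal hepatocytes, had no count in fresh hepatocytes and 11, 200 and 26 in aggregates, at least 34.3-fold higher. Igf2bp3, an RNA-binding protein of the embryo, had none against 38, 210 and 83. Aggregate 2 was the highest of the aggregates for Igf2, Afp and Igf2bp3.

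Calcium-binding S100 proteins, annexins and genes of the cytoskeleton were above the fresh level in part. S100a6 had 3, 1 and 1 counts in fresh hepatocytes and 2776, 3921 and 2796 in aggregates (9.67 ± 0.57 SE, or 10.84 with the UMI correction and 10.38 without fresh hepatocytes 1). Anxa2, a membrane-binding annexin, went from 5, 8 and 7 counts to 457, 1682 and 1179 (6.05 ± 0.49) and S100a11 from 3, 4 and 5 to 316, 1466 and 777 (6.39 ± 0.54). In this list 7 of 15 tested genes were called higher and 0 lower (median 1.99), or 5 of the 13 with counts in fresh hepatocytes. In the mesenchymal and cytoskeletal list it was 16 higher and 2 lower of 43 (median 1.09), with 5 lower without fresh hepatocytes 2 and 4 without fresh hepatocytes 3. Its median was 1.71 without the latter. Ezr, which links actin to the membrane, had 9, 8 and 8 counts against 452, 1490 and 691 (5.42 ± 0.47), and Flna, an actin crosslinker, 3, 1 and 4 against 84, 153 and 190 (4.50 ± 0.52). Vim, the intermediate filament vimentin, was low in both groups, with 3, 0 and 0 counts against 10, 77 and 47. The ratio was 19.4 with a counting interval of 6.49 to 95.1, and the gene was called higher. All 3 fresh counts came from fresh hepatocytes 1, and the fitted log2 fold change of Vim was 4.03, 7.99 without that library and 3.37 at its lowest when another was left out. Monolayers had 325 to 1010 counts of Vim and were called above aggregates, whereas S100a6, Anxa2 and S100a11 were not called between aggregates and monolayers.

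Epithelial junction genes did not follow a single course. Cdh1, or E-cadherin, had 337, 222 and 178 counts in fresh hepatocytes and 616, 1229 and 959 in aggregates and was not called (0.67, 95% interval -0.15 to 1.49). Ocln, of tight junctions, gave 0.69 (-0.09 to 1.47). Cldn3 varied widely among aggregates, with 3, 19 and 143 counts against 42, 44 and 89, and was not called (-1.35), but it was called lower without aggregate 3 (-3.54). Cldn1 was called lower, with 29, 13 and 16 counts against 0, 3 and 2, and had no count in monolayers.

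Biliary and progenitor genes were higher in aggregates in part. Of 20 tested genes 8 were called higher and 2 lower, or 1 lower without aggregate 2 (median 1.08, from 0.60 to 1.11 when a single library was left out). Among the 18 with counts in fresh hepatocytes 6 were higher. Some of these, such as Sox4, had so few fresh counts that they also passed the filter through the aggregates alone. Sox4, a transcription factor of bile duct development, had 2, 1 and 1 counts in fresh hepatocytes and 369, 1040 and 833 in aggregates (7.78 ± 0.54 SE). Cd24a, a surface protein of progenitor cells, had 2, 0 and 0 against 737, 1748 and 1774. Krt7 had 0, 1 and 0 against 213, 303 and 248, and Krt19 none against 12, 80 and 38, at least 18.8-fold higher. Krt19 was lower in aggregates than in monolayers, which held 167 to 1658 counts, while Sox4, Cd24a and Krt7 were not called there. Of 15 cholangiocyte markers 6 were tested, 3 were called higher and 1 lower. By sign alone 5 of the 6 were higher and 1 lower, and the summed list was 278 to 517 CPM in aggregates and 117 to 196 CPM in fresh hepatocytes. Epcam and Cftr, which also mark biliary cells, were chosen after their values were seen. They were not tested, with 2, 25 and 3 counts of Epcam and 0, 1 and 0 of Cftr in aggregates.

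Targets of the transcriptional coactivator Yap and genes of the matrix were mixed. Of 17 tested Yap targets 7 were called higher and 1 lower, or 2 lower without fresh hepatocytes 3. The median was 0.84, or 1.57 without fresh hepatocytes 1, and among the 15 with counts in fresh hepatocytes 5 were higher. Axl, a receptor kinase, rose by 4.36 ± 0.50 SE from 5, 6 and 12 counts to 190, 672 and 281, and Myof, a membrane repair protein, had no count in fresh hepatocytes and 100, 342 and 88 in aggregates, at least 76.6-fold higher. Ccn1, or Cyr61, was the called exception, with 63, 4 and 50 counts against 2, 13 and 23 (-2.84 ± 0.81). Its range overlapped between groups, its value was -2.22 without fresh hepatocytes 1 and -3.49 without aggregate 3, and with monolayers in the same fit its FDR in edgeR was 0.187. Ccn2, or Ctgf, had no count in fresh hepatocytes and 0, 5 and 5 in aggregates, too few to be tested, and 30 to 1128 in monolayers. For matrix, protease and integrin genes 10 of 28 were called higher and 2 lower, or 1 lower without fresh hepatocytes 1 or aggregate 1. The median was 0.99, or 1.63 without fresh hepatocytes 1 and 1.52 without aggregate 1. Lamb2, a laminin chain, had 2, 1 and 1 counts against 128, 537 and 193 (6.36 ± 0.65), and Timp3, a protease inhibitor, fell by 3.35 ± 0.53.

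Intestinal genes went both ways. Of 45 measured, 14 were tested, 6 were called higher and 3 lower. Of the 14, 4 had no count in fresh hepatocytes and passed through the aggregates alone. Among the other 10, 2 were called higher and 3 lower. The 2 include Tff3, which also passed through the aggregates alone. The summed level of the list was 2140 to 2900 CPM in aggregates and 4040 to 5450 CPM in fresh hepatocytes. Tff3, the trefoil peptide of goblet cells, had 1, 0 and 1 counts in fresh hepatocytes and 1365, 1033 and 2057 in aggregates, a ratio of 966 with a counting interval of 267 to 7980. Monolayers had 1 to 104 counts, so Tff3 was called higher in aggregates than in both other groups. Vil1, the actin bundler of the brush border, and Krt20, a keratin of mature gut epithelium, had no count in fresh hepatocytes against 312, 778 and 283 and 630, 642 and 176 in aggregates, at least 198-fold and 209-fold higher. Muc13, a transmembrane mucin, had none against 282, 470 and 56. Cdx2, the intestinal master regulator, had none against 5, 54 and 11 and was not tested. Among the 3 genes called lower were Pigr and Fabp1, described above. Tff3, Vil1, Krt20 and Muc13 were higher in each aggregate than in any fresh library. They passed the filter through the aggregates alone and had to differ, so this is a description. Aggregates lay above fresh hepatocytes without overlap for 21.5% of all genes tested.

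Proliferation genes were largely at low counts in both groups. Of 97 cell cycle genes only 23 passed the filter, with 3 called higher and 3 lower. Mki67, the usual marker of dividing cells, had 15, 6 and 4 counts in fresh hepatocytes and 1, 9 and 26 in aggregates and was not tested, against 146 to 1961 in monolayers. The called genes went both ways. Mcm10, a replication factor, had 178, 280 and 287 counts in fresh hepatocytes and 6, 6 and 15 in aggregates (-5.96 ± 0.52 SE), and Cdc25a, a cell cycle phosphatase, had 6, 6 and 8 against 34, 104 and 135 (2.48 ± 0.48). Cdkn1a, the inhibitor p21, had 6, 5 and 5 counts against 571, 1419 and 1135 (6.33 ± 0.44), and monolayers had 678 to 1533. With so few fresh counts Cdkn1a passed the filter through the aggregates alone, so its separation from fresh hepatocytes is a description. It was not called against monolayers (0.35).

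Glycolytic isoforms of non-hepatic cells were high. Pkm, the pyruvate kinase of non-hepatic cells, had 15, 13 and 19 counts in fresh hepatocytes and 1239, 2492 and 2008 in aggregates, or 14.9 ± 0.454 CPM against 787 ± 37.8 CPM (SD, n = 3 each; log2 fold change 5.71 ± 0.38 SE). Hk1, a hexokinase of most other tissues, had 2, 1 and 2 counts against 126, 361 and 146 (5.67 ± 0.57), and G6pdx, the first enzyme of the pentose phosphate pathway, 2, 11 and 15 against 104, 178 and 292 (3.14 ± 0.58). Of 25 tested glycolysis genes 5 were called higher and 0 lower, or 8 higher with library totals. Pgk1, a shared step, gave 0.09 with a 95% interval of -0.63 to 0.80, and Taldo1, of the pentose pathway, 0.06 (-0.70 to 0.81). The isoform-specific genes Pkm and Hk1 were thus far apart between groups while Pgk1 and Taldo1 were not called.

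Serine synthesis showed the gene with the smallest p among those called higher. Psat1, the second enzyme of the pathway (chr19:15904678-15947337, minus strand, GRCm38), had 3, 3 and 6 counts in fresh hepatocytes and 3430, 4034 and 3442 in aggregates (8.69 ± 0.49 SE, or 10.21 with the UMI correction). Phgdh, the first enzyme, had none against 20, 61 and 43, at least 17.9-fold higher. Asns, asparagine synthetase, had 1, 0 and 4 counts against 72, 184 and 249 (5.37 ± 0.70, or 6.82 without fresh hepatocytes 3), and Mthfd2, of the mitochondrial folate pathway, 2, 0 and 1 against 45, 121 and 149. Slc7a11, the cystine importer, had none against 85, 112 and 188, at least 55.6-fold higher. These 5 genes had few or no counts in fresh hepatocytes and passed the filter through the aggregates alone. Their separation from fresh hepatocytes is therefore a description, and 21.5% of all genes tested lay above fresh hepatocytes without overlap. None of the 5 was called between aggregates and monolayers. Psat1, Asns and Mthfd2 are known targets of ATF4, the factor of the amino acid and endoplasmic reticulum stress response. They stood in a list of 29 ER stress genes, where they were the 3 called higher with the smallest p. In that list 8 were called higher and 1 lower, against 6.78% and 9.78% of all genes tested. By sign alone 11 of the 29 had a positive and 18 a negative fold change. The list median was -0.49, or 0.16 with library totals, so the list as a whole is given no direction. The single lower call became 0 without fresh hepatocytes 1, 3 without fresh hepatocytes 2 and 4 without fresh hepatocytes 3.

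The Asns and Slc7a11 promoters are shown because their genes moved together and both hold TGATGNAAN, the letters of an amino acid response element. Capitals mark matches on either strand, and the other conventions are as above.

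Asns promoter, chr6:7693210-7693459, minus strand: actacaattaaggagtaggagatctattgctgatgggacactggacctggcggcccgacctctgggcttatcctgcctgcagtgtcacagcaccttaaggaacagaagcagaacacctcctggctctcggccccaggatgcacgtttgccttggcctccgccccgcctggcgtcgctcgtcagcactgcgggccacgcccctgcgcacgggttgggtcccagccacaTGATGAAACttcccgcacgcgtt

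Slc7a11 promoter, chr3:50443614-50443863, minus strand: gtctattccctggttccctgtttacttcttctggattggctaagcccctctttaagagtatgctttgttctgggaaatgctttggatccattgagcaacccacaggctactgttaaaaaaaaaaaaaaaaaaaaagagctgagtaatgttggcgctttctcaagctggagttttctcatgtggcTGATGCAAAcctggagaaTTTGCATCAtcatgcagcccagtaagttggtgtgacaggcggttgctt

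Asns holds a match at position 228. Slc7a11 holds 2, at positions 185 and 203, on opposite strands. TGATGNAAN is in 3.44% of 32851 promoters of this length, in 1.86% of those of tested genes, in 2.36% of those of genes called higher and in 2.5% of those of genes called lower. It is in 4 of 28 promoters of the ER stress list. The motif is short and was searched by its letters alone.

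Metal and oxidative stress genes were unequal. Mt2, a metallothionein, had 11, 22 and 52 counts in fresh hepatocytes and 2297, 2637 and 2230 in aggregates (5.33 ± 0.54 SE, or 5.97 with the UMI correction), and it was called above monolayers as well, which had 238 to 1622. Mt1 had 69, 296 and 446 against 3494, 3930 and 3337 (2.64, or 3.96 with the correction). Of 23 tested genes of the metallothionein and NRF2 list 7 were called higher and 1 lower. Txnrd1, a thioredoxin reductase, gave 0.18 with a 95% interval of -0.52 to 0.88, while Gpx1, the main glutathione peroxidase, fell by 3.39 ± 0.36 from 1355, 1710 and 2813 counts to 228, 569 and 511. High metallothioneins thus stood beside a low peroxidase in the same libraries.

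Of 41 tested genes of cholesterol and fatty acid synthesis 2 were called higher and 6 lower, or 5 and 3 with library totals. Scd2, the desaturase of embryonic and non-liver tissue, had 22, 4 and 3 counts in fresh hepatocytes and 2439, 2676 and 2232 in aggregates (6.83 ± 0.74 SE, or 7.47 with the UMI correction and 8.30 without fresh hepatocytes 1). Scd1, the liver form, had 2375, 3367 and 2681 against 2800, 1890 and 3313 and was not called (-1.19). Elovl3, a male-biased fatty acid elongase, had 75, 235 and 279 counts against none, at least 453-fold lower. Srebf2, the regulator of cholesterol synthesis, rose by 2.41 ± 0.44. The desaturases of liver and of other tissues were therefore both at high counts in aggregates.

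Inflammatory and immediate-early genes showed both directions. Of 27 tested immediate-early and AP-1 genes 8 were called higher and 3 lower, the lower calls being 6 without aggregate 2 and 1 with library totals. Ier5 and Dusp5, which respond to growth factors, rose by 3.53 ± 0.45 and 3.48 ± 0.57 SE, and Jun fell by 2.85 ± 0.35 from 2400, 1647 and 2447 counts to 442, 628 and 989. Of 16 tested chemokine and NF-kB genes 4 were called higher and 2 lower, the lower calls being 4 without fresh hepatocytes 2. Ccl2, a monocyte attractant, had 6, 0 and 2 counts against 84, 886 and 576 (6.18 ± 0.89, or 7.56 without fresh hepatocytes 1) and was below monolayers, which held 2043 to 3587. Nfkb2, an NF-kB subunit, rose by 2.82 ± 0.40. Interferon and MHC genes were lower where called, with 9 of 23 against 1 higher, or 4 lower with library totals. H2-K1, which presents antigen, fell by 2.68 ± 0.40 from 1840, 1278 and 1081 counts to 392, 432 and 673. Of these genes Jun, Ier5, Nfkb2 and H2-K1 were not called between aggregates and monolayers.

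Of 49 tested nuclear genes of oxidative phosphorylation 1 was called lower and 0 higher, a count that was 0 without fresh hepatocytes 1 or aggregates 2 or 3 and 2 without any other library. Of 15 genes encoded in mitochondria 5 were called lower and 0 higher (median -1.52, or -2.01 with the UMI correction). The calls of the latter were 2 with library totals and 8 with the UMI correction. The share of mitochondrial counts was 2.94% to 3.3% in fresh hepatocytes and 1.54% to 2.05% in aggregates. mt-Atp8, a subunit of the ATP synthase, had 390, 236 and 430 counts against 84, 186 and 109 (-2.68 ± 0.36 SE).

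Against monolayers the aggregates had 1071 of 11265 tested genes called (9.51%), 495 higher (4.39%) and 576 lower (5.11%), and monolayers against fresh hepatocytes had 2901 of 11276 called (25.7%), 1480 higher (13.1%) and 1421 lower (12.6%). The direction of the majority was not stable. With the culture as a block, over the 3 cultures that have both libraries, aggregates had 612 genes higher and 499 lower than monolayers. The lower calls were 273 without aggregate 1 and 326 without aggregate 3, with 445 and 436 higher. The comparison of monolayers with fresh hepatocytes shares its fresh libraries with the comparison above, so the counts are set side by side and no overlap was taken. In complement and coagulation 45 genes were called lower in monolayers than in fresh hepatocytes, 22 in aggregates, and 29 were higher in aggregates than in monolayers. These were of 46, 45 and 39 tested, and over all genes the 3 shares were 12.6%, 9.78% and 4.39%. For P450 genes the same 3 counts were 40, 30 and 27 of 45, 47 and 37 tested. For bile acid genes they were 23, 17 and 11 of 26, 26 and 19, and for amino acid breakdown 49, 37 and 22 of 52, 52 and 41. For transcription factors they were 20, 11 and 8 of 40, 39 and 34, and for major urinary proteins 21, 21 and 1 of 21, 21 and 1. Genes called higher in aggregates than in monolayers were thus found in each of these lists. Of the major urinary proteins Mup20 alone passed the filter in aggregates against monolayers.

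For culture genes the corresponding counts were called higher in monolayers than in fresh hepatocytes, higher in aggregates than in fresh hepatocytes, and lower in aggregates than in monolayers. Over all genes the 3 shares were 13.1%, 6.78% and 5.11%. The counts were 65, 3 and 55 for the cell cycle and 17, 7 and 11 of 26, 17 and 26 tested for Yap targets. They were 29, 16 and 9 of 51, 43 and 49 for the mesenchymal list. For S100 proteins and annexins they were 11, 7 and 2 of 18, 15 and 18, and for biliary genes 11, 8 and 2 of 24, 20 and 24. For the oncofetal list they were 12, 9 and 1 of 14, 11 and 14. Different numbers of genes were tested in each comparison, and in the cell cycle list only 23 against fresh hepatocytes and 83 and 87 in the others, so these counts do not track the same genes. Bex3 and B4galt6, a small adaptor protein and a sphingolipid galactosyltransferase among the 10 genes called higher with the smallest p, were not called between aggregates and monolayers. Bex3 had 1, 5 and 6 counts in fresh hepatocytes, 806, 1919 and 1410 in aggregates and 1144 to 2166 in monolayers, and B4galt6 had 3, 4 and 1, then 718, 1074 and 714, and 689 to 1461.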

How the data were processed

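Fresh hepatocytes (3 libraries), dediHep aggregates (3) and monolayer dediHeps (5) were analysed from the UMI count matrix of 46078 Ensembl identifiers deposited for all 49 libraries. The authors made these counts with CEL-seq2 and the celseq2 pipeline. The submitters' processing notes name bcl2fastq 2.20, Bowtie2 2.3.1, HTSeq 0.6.0 and GRCm38. Reads of the same UMI and gene were counted as 1, so counts level off near the number of UMI sequences, and replicates were not pooled. Symbols were matched for 45143 identifiers with GENCODE M21, of which 56 symbols stand for more than 1 identifier.

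Counts were fitted in edgeR 4.0.16 (R 4.3.3) with TMM normalisation, filterByExpr (minimum count 10, minimum total 15) and the quasi-likelihood F-test, with only the compared groups in each fit. FDR is Benjamini-Hochberg adjusted over all genes tested, and the thresholds for a call, FDR at 0.1 and log2 fold change at 2, are those of the study. For a gene without counts in a group a bound was computed from a floor of 3 counts over the group, which is 0.955 CPM in fresh hepatocytes and 0.414 CPM in aggregates. For 1 to 3 counts the exact 95% interval of the ratio was taken, and both cover counting error only. The script was tested on simulated counts. Alternatives used DESeq2 1.42.0, library totals, other filters, UMI correction, thinned counts, other sets of libraries and each library left out.

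The libraries, the gene lists and the tests were chosen with earlier results of these data known. Named genes are those the study names, the 10 called genes of smallest p in each direction, and in each list the 3 called members of smallest p in each direction, the 3 of highest mean level and up to 3 not called with an interval within 1 log2 unit. Abcb11, Slc10a1, Arg1, Foxa2, Nr1h4, Myof, Igf2, Afp, Igf2bp3, Muc13, G6pdx, Phgdh, Mt1, Ccl2, Xist, Epcam and Cftr lie outside this rule and were chosen after their values were seen. Promoter sequences came from RefSeq and were searched for letters only. Some genes are not reported here.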

Additional observations from a re-analysis of the deposited data

How the results depend on the processing

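The number of genes called between aggregates and fresh hepatocytes, 1580 (647 higher and 933 lower), moved by more than 1.5 times under 7 alternatives. It was 2382 with DESeq2 (1429 lower), 3007 without a low-count filter (1228 higher, 1779 lower), 2817 with a filter of 0.5 CPM in 3 libraries (1244 and 1573) and 984 with a minimum count of 30 (374 and 610). With all 49 libraries in the fit it was 2725 (1305 and 1420), with a log2 fold change beyond 1 it was 3257 (1462 and 1795), and at any fold 3403 (1521 and 1882). Library totals kept the sum near 1774 but gave 1152 higher and 622 lower. Leaving out a library gave 1596 to 2027, and leaving out both fresh hepatocytes 1 and aggregate 1, chosen after seeing the data, gave 1809. The replicate block gave 1546, with Cps1 (-2.12) and Cldn3 (-2.29) called and Ghr (-1.998) not. Same-numbered fresh and aggregate libraries deviated together with correlations of 0.13, -0.0411 and 0.102 and share only a number. Against monolayers 718 genes were called without aggregate 1 and 762 without aggregate 3, against 1071.

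Of 167 named genes 155 kept their call and direction in every alternative fit that tested them. With thinned counts 165 of the 167 were tested, and without aggregate 2 it was 166. Ccn1, Cldn3, Cps1, Ghr and Otc crossed the threshold under some alternatives, given above except for the block values and Ghr with all 49 libraries (-1.92). C4bp was 0.56 with library totals, 0.034 with 49 libraries, 0.090 with the UMI correction and -0.34 to 0.38 on leaving out a library. Apoa1 was 0.14 with the UMI correction. On leaving out a library Gstt1 ran from -0.32 to 0.29, Hnf4a from -0.10 to 0.25, Pgk1 from -0.012 to 0.22, Rxra from -0.11 to 0.33 and Taldo1 from -0.10 to 0.27. Of 144 called genes 58 moved by more than 1.5-fold when a library was left out, by at most 4.66 log2 units for Ddx3y. The causes were not tested. Folds of genes with more than 2000 counts are limited by the UMI number.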
